A study of Mus musculus with 6 samples.

Results

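Cells that leak or release ATP, ADP, UDP and adenosine are sensed by their neighbours through purine receptors, and 10 mouse genes of this system were followed here. They are 4 genes of metabotropic nucleotide receptors (P2ry12, P2ry13, P2ry6 and P2ry14), 2 genes of ATP-gated ion channels (P2rx4 and P2rx7), the adenosine receptor gene Adora3, the related receptor gene Gpr34, and 2 genes of ectoenzymes that cleave nucleotides outside the cell (Entpd1 and Nt5e). The genes were chosen by name, and all 10 were found among the 53379 gene identifiers of the count files. RNA was sequenced from cerebral cortex of mice aged 2 months and of strain C57BL/6, with 3 libraries from wild type animals (replicates 1, 3 and 4) and 3 labelled GTF2ird1-/- (replicates 5, 6 and 7), called labelled knockout here. Values of a group stand in this order of replicates throughout. Which part of Gtf2ird1 was mutated, and in which cells, was not given in the sources used here. Nothing in the labels says that libraries came from separate animals, so each p-value speaks to the spread of these libraries only, which may be technical.

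In the brain, purine receptors are a main way in which microglia, the resident macrophages, find injured cells. ATP released by a cell is cut to ADP and AMP by Entpd1 (CD39), and AMP is cut to adenosine by Nt5e (CD73). P2RY12 senses ADP and steers microglial processes, P2RY6 senses UDP and promotes phagocytosis, P2RX7 opens at high ATP and triggers the inflammasome, and adenosine receptors read the end product.

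The series title names Gad2+ neurons, yet Gad2 reached only 29.0 to 121 CPM (counts scaled to a common library size after TMM correction for composition), while Csf1r, a receptor that defines macrophages and microglia, lay between 6637 and 10855 CPM. Levels of cell types other than microglia were uneven within wild type: the summed level of 12 astrocyte markers came to 3444, 584 and 285 CPM in the wild type group, compared with 6078, 3398 and 3795 CPM in replicates 5, 6 and 7 labelled knockout. Wild type replicate 1 thus stood with the libraries labelled knockout in this respect. For the 10 markers of GABAergic neurons wild type replicate 4 did so instead. Their sum was 270, 218 and 677 CPM in the wild type group and 502 to 925 CPM in the libraries labelled knockout. Total gene counts lay between 13627501 and 30544144, and ribosomal RNA took 17.5% of them in wild type replicate 3, 6.2% in replicate 6 labelled knockout and at most 1.51% elsewhere. Gtf2ird1 had 23.3 to 52.7 CPM in wild type and 40.6 to 49.7 CPM in the libraries labelled knockout, and so was not lower there (log2 fold change 0.37, edgeR adjusted p = 0.703). A count over all exons cannot show a mutation that leaves the transcript in place.

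P2ry12, P2ry13 and P2ry14 share a locus. P2ry14, P2ry13 and P2ry12 lie in this order on the minus strand of chromosome 3 in GRCm38, at 59113855 to 59153618, 59207892 to 59210882 and 59216272 to 59262871, all inside the span of Med12l (59005825 to 59318682), a Mediator subunit gene on the other strand with which P2ry12 shares 9 exonic bases. The 5.39 kb between P2ry13 and P2ry12 compare with 54.3 kb between P2ry14 and P2ry13. The stretches before the start sites of these neighbours are shown because P2ry12 and P2ry13 were among the most abundant transcripts and P2ry14 was nearly absent. Each is 250 bases long, 5′ to 3′ on the strand of the gene, from RefSeq on GRCm38.p6, and ends at the base before the start site. They cover chr3:59262986-59263235 for P2ry12, chr3:59210883-59211132 for P2ry13 and chr3:59153493-59153742 for the outermost of the 4 RefSeq start sites of P2ry14. The gene spans above are from the GENCODE M21 annotation, whose ends differ from the RefSeq starts for P2ry12 and P2ry14. The P2ry14 window reaches into its GENCODE span, which ends at 59153618, and the P2ry12 window begins beyond its own, which ends at 59262871. Capitals mark GAGGAA, the core of the PU box bound by the myeloid factor PU.1, or GGAAGT, a related ETS-type motif.
P2ry12: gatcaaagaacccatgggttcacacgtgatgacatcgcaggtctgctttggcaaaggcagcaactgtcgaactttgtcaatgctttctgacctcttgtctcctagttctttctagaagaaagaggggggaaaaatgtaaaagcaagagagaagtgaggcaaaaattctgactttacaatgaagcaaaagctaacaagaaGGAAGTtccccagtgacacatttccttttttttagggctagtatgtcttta
P2ry13: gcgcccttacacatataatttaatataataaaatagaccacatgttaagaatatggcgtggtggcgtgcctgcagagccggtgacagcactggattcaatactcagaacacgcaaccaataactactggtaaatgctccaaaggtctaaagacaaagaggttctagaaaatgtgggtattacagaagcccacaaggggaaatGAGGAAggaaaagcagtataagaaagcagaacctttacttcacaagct
P2ry14: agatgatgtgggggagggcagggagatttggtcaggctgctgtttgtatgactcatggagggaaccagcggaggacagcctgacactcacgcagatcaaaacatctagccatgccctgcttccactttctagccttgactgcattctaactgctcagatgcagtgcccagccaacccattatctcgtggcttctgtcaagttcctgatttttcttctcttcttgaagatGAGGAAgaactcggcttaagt
P2ry12 held GGAAGT from 51 to 46 bases before its RefSeq start, and P2ry13 held GAGGAA from 48 to 43 bases before its start. P2ry14 held GAGGAA from 21 to 16 bases before its RefSeq start, which is inside its GENCODE span. Both motifs were searched on both strands, share the letters GGAA and can overlap. GAGGAA was in 23.2% and GGAAGT in 19.7% of all 32851 windows of this length, and either in 36.7%. Of the 10 genes, 8 were in the promoter table, with 13 windows, some overlapping, of which 8 held a motif. They belong to 5 genes, the 3 shown, Adora3 and Entpd1, and include all 4 windows of P2ry14. The motifs were chosen after values or sequences were seen, so these counts cannot be read against the share over all windows. All 3 windows shown held a motif, and a link between the motifs and the levels was not tested.

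Levels spanned more than 4 orders of magnitude. On a scale that divides CPM by exon length (RPKM), P2ry12 had a mean of 1530 ± 353 (SD over 6 libraries) and ranked 6 of 21865 protein-coding genes. Gpr34 followed with 576 ± 152 RPKM (rank 26) and P2ry13 with 364 ± 70.2 RPKM (rank 34), both SD over 6 libraries. Entpd1 had 121 ± 24.0 RPKM (rank 156), P2ry6 55.0 ± 10.5 RPKM and P2rx7 48.0 ± 6.96 RPKM. Adora3 had 13.6 ± 3.56 RPKM and P2rx4 7.10 ± 1.53 RPKM. Nt5e and P2ry14, at 0.085 and 0.0467 RPKM, were at the bottom. The order from P2ry12 down to Nt5e held within each of the 6 libraries, although the ranges over libraries overlapped between Gpr34 and P2ry13, between P2ry6 and P2rx7, and between Adora3 and P2rx4. Only between Nt5e and P2ry14 did 1 library reverse the order. These are comparisons between genes by exon length from GENCODE M21, and unused exons of a long gene lower its RPKM.

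**Figure D1:**
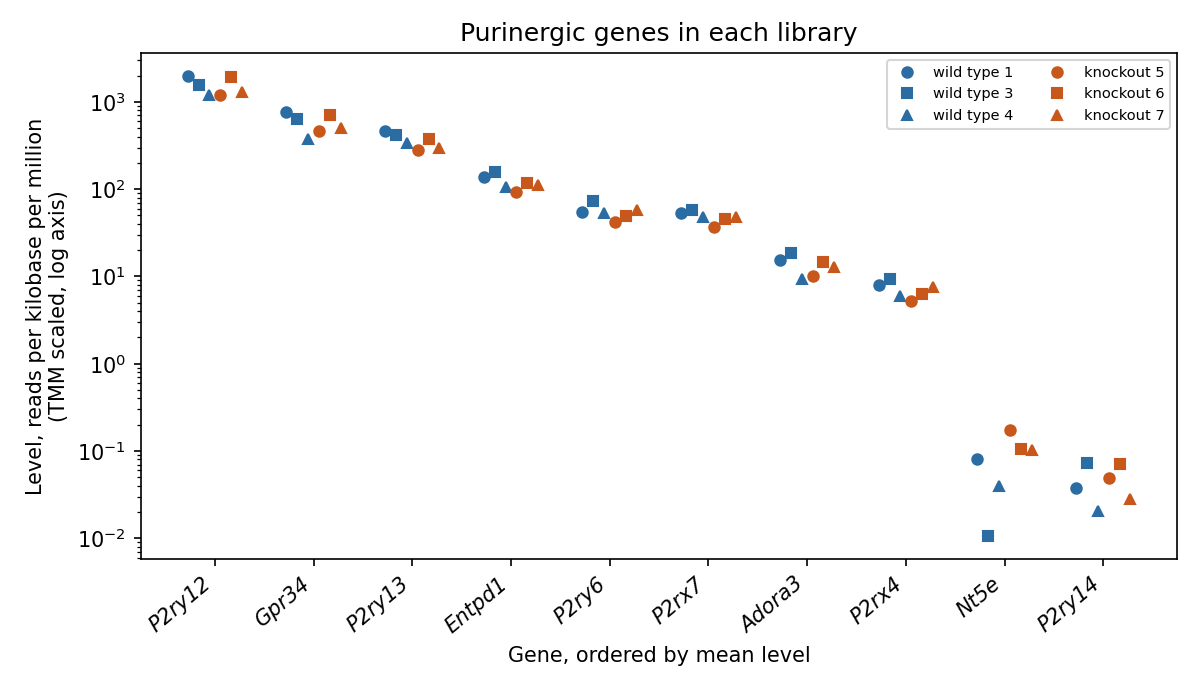
RPKM of the 10 genes (log axis) in each of the 6 libraries, ordered by mean level; blue is wild type, orange is labelled knockout. Means fall from 1530 RPKM for P2ry12 to 0.0467 RPKM for P2ry14, the symbols of 4 pairs of neighbours overlap in range, and the 2 lowest genes scatter most.

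Among 25 receptor genes of the system (the 8 receptors followed here and 17 others), the 8 took between 97.9% and 99.2% of the summed RPKM in each library. P2ry12 alone took 57.6 ± 1.74% in wild type and 58.7 ± 1.79% in those labelled knockout (SD, n = 3 each; exact permutation test, two-sided p = 0.6). Gpr34 took 21.3 ± 2.60% and 22.2 ± 0.28%. P2ry13 took 15 ± 1.33% in wild type and 13 ± 0.832% in those labelled knockout (SD, n = 3 each), and its 3 wild type shares (13.8%, 14.9% and 16.4%) lay above the others (13.5%, 12% and 13.4%). The exact permutation p was 0.1, the smallest that 3 against 3 libraries can give, so none of the 25 shares could pass 0.05. The shares of P2ry1 and Gpr17 did not overlap between the groups either, but were higher in those labelled knockout. Over all tested genes, groups that do not overlap in level made up 13%.

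None of the 10 genes passed the test for a difference between the groups. All 10 passed the filter on low counts, and 0 of 10 passed an edgeR adjusted p of 0.05, where 0.00581% of the 17221 tested genes did. That share moved with wild type replicate 1: the count of 1 gene called became 306 higher and 15 lower of 17320 tested genes without it, with 0 of the 10 among them. By edgeR 0 of 10 had an unadjusted p under 0.05, against 7.25% of tested genes, and DESeq2 and limma-voom also called 0, with an unadjusted p under 0.05 for 0 and 1 of the 10. Log2 fold changes (labelled knockout over wild type) were negative for 8 of the 10 genes with TMM scaling and for 6 with library totals alone, which moved the median over all genes from -0.03 to 0.11. The median over the 10 was -0.25 with TMM, beside the -0.03 over all genes, of which 53.7% were negative. The 19 microglia markers were also all negative, with a median of -0.30. The 12 astrocyte markers were all positive, with a median of 1.80, and CPM is a relative measure. In bulk RNA, fewer cells of a type, less RNA per cell and a changed share of other cells cannot be told apart.

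**Figure D2:**
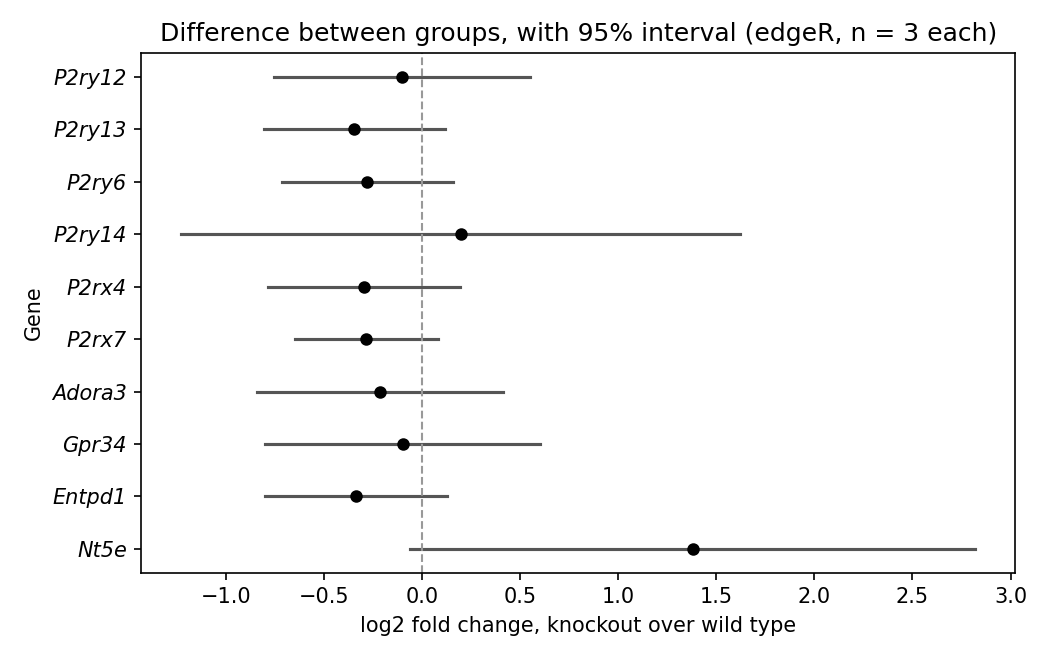
Log2 fold change of each gene, labelled knockout over wild type, as points with 95% intervals from edgeR (n = 3 each). Every interval crosses the dashed line at 0, and those of Nt5e (-0.06 to 2.82) and P2ry14 (-1.23 to 1.62) are the widest.

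P2ry12, the ADP receptor that guides microglial processes and the target of clopidogrel-type drugs on platelets, had 5047, 3963 and 3089 CPM in the wild type libraries, compared with 3095, 4909 and 3271 CPM in replicates 5, 6 and 7 labelled knockout. Replicates 1 and 6, from different groups, were highest, and the groups overlapped. Within wild type the level varied 1.63-fold and within the libraries labelled knockout 1.59-fold, while the groups differed by a factor of 0.932 (95% interval 0.594 to 1.46, edgeR adjusted p = 0.916). Its log2 fold change of -0.10 turned to 0.09 without wild type replicate 1, 0.02 without replicate 5 and 0.04 with library totals alone.

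Gpr34, a receptor of microglia that is related to the P2Y12 group and responds to lysophosphatidylserine, lies on the X chromosome (13632089 to 13640858, plus strand) inside Cask, a gene of the other strand. It had 1594, 1347 and 794 CPM in the wild type libraries, compared with 959, 1489 and 1044 CPM in replicates 5, 6 and 7 labelled knockout. Its libraries fell in the same order as for P2ry12, with replicates 1 and 6 highest and replicate 4 lowest. The group factor was 0.935 (95% interval 0.575 to 1.52, edgeR adjusted p = 0.925). The log2 fold change of -0.10 also changed sign, to 0.12 without wild type replicate 1, 0.03 without replicate 5 and 0.06 with library totals alone.

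P2ry13, a further ADP receptor, had 1176, 1055 and 862 CPM in the wild type libraries, compared with 714, 963 and 759 CPM in replicates 5, 6 and 7 labelled knockout. Group means were 1031 ± 158 and 812 ± 133 CPM (SD, n = 3 each), and the groups overlapped through wild type replicate 4 and replicate 6. The log2 fold change was -0.34 ± 0.20 (SE, with an adjusted p of 0.647 from edgeR), with a 95% interval of the fold from 0.572 to 1.09.

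The ratio of P2ry12 to P2ry13 within a library does not depend on scaling. In RPKM it came to 4.26, 3.73 and 3.56 in the wild type group, compared with 4.30, 5.06 and 4.28 in replicates 5, 6 and 7 labelled knockout. The groups did not overlap, but only 0.02 separated the highest wild type ratio from the lowest of the other group. The ratios averaged 3.85 ± 0.367 and 4.55 ± 0.444 (SD, n = 3 each), a log2 difference of 0.24, and p was 0.1 by exact permutation (two-sided), the smallest possible. Over the tested genes, groups that do not overlap in level made up 13%. Leaving out 1 library at a time gave differences from 0.16 to 0.32.

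**Figure D3:**
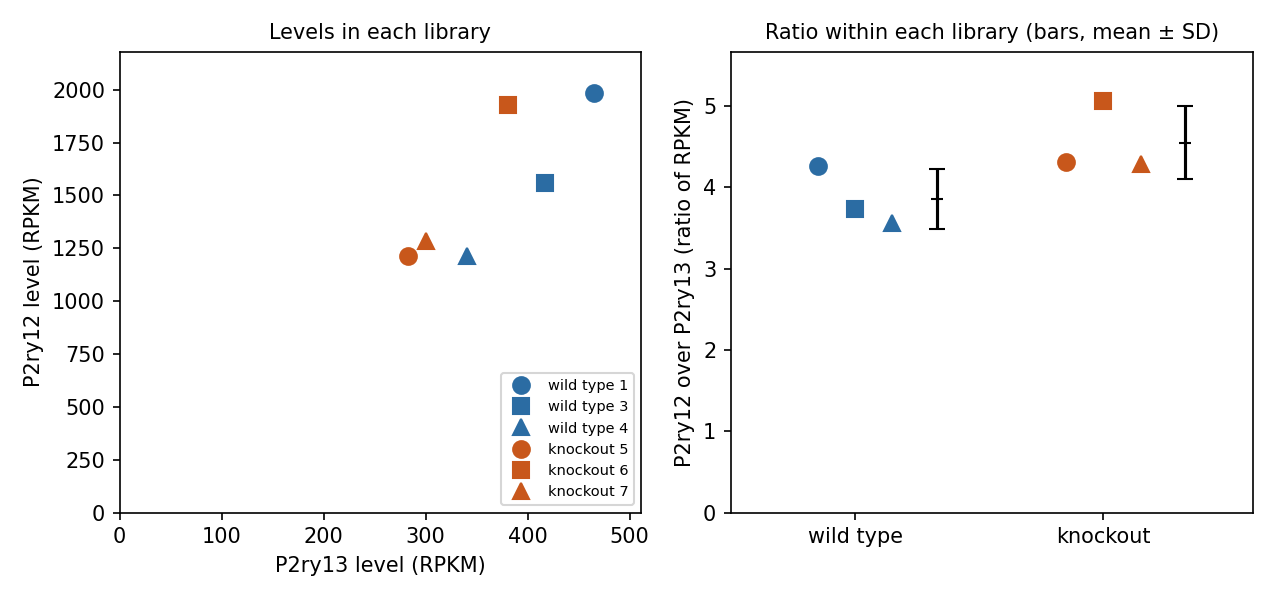
Left, RPKM of P2ry12 against P2ry13 in each library; right, their ratio within each library with mean ± SD (n = 3 each). The wild type ratios end at 4.26 and those of the libraries labelled knockout begin at 4.28.

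P2ry14, a receptor for UDP-glucose and the remaining gene of the locus, was close to the limit of detection. It had 12, 9 and 4 counts in wild type, compared with 14, 13 and 10 in those labelled knockout, or 0.228 to 0.816 CPM and 0.312 to 0.779 CPM. Exact Poisson intervals, which cover counting error only, ran from 0.0622 to 0.585 CPM in wild type replicate 4 and from 0.373 to 1.55 CPM in replicate 3. The libraries of each group spanned nearly the same range (log2 fold change 0.20 ± 0.61, SE; edgeR adjusted p = 0.926). Its fold had a 95% interval of 0.427 to 3.08 from edgeR, so differences within this range were not excluded by these libraries.

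P2ry6, the UDP receptor linked to phagocytosis, lies on chromosome 7 (100937630 to 100974649, minus strand). It had 157, 211 and 154 CPM in the wild type libraries, compared with 121, 141 and 168 CPM in replicates 5, 6 and 7 labelled knockout. Wild type replicate 3 was highest and replicate 5 lowest, and the groups overlapped (log2 fold change -0.28 ± 0.19, SE; edgeR adjusted p = 0.673). The library order thus differed from that of P2ry12, where replicate 1 led wild type and replicate 6 led the other group.

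The ATP-gated channel genes P2rx7 and P2rx4 are neighbours on the plus strand of chromosome 5 (122643911 to 122691432 and 122707544 to 122729738), 16.1 kb apart. This is the chromosome of Gtf2ird1 (134357656 to 134456716), which starts 11.6 Mb beyond the end of P2rx4. P2rx7, the channel that gates potassium efflux and the NLRP3 inflammasome, had 315, 342 and 287 CPM in the wild type libraries, compared with 219.5, 269 and 287 CPM in replicates 5, 6 and 7 labelled knockout. It was the steadiest of the 10 genes within wild type, with an SD of 8.66% of the mean, and the groups overlapped barely, with wild type replicate 4 at 287.07 and replicate 7 at 287.19 CPM. Its log2 fold change was -0.28 ± 0.16 (SE, with an adjusted p of 0.638 from edgeR), with a 95% interval of the fold from 0.638 to 1.06. P2rx4, a channel found on lysosomes and the surface of microglia, had 56.5, 66.2 and 42.3 CPM in the wild type libraries, compared with 36.6, 44.7 and 53.1 CPM in replicates 5, 6 and 7, and the groups overlapped (log2 fold change -0.30 ± 0.21, SE; edgeR adjusted p = 0.685). The ratio of P2rx7 to P2rx4 in RPKM was 6.87 ± 0.989 in wild type and 6.84 ± 0.405 in those labelled knockout (SD, n = 3 each; exact permutation test, two-sided p = 1).

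Adora3, the adenosine A3 receptor gene of rodent microglia, spans chromosome 3 from 105870858 to 105908926. It shares 779 of 3729 exonic bases (20.9%) with Tmigd3 on the same strand. Reads there can be assigned to neither gene, so its level may be understated, and Tmigd3 itself had only 2 to 19 counts. Adora3 had 57.9, 70.1 and 34.8 CPM in the wild type libraries, compared with 37.6, 55.1 and 47.7 CPM in replicates 5, 6 and 7 labelled knockout. The wild type libraries enclosed all the others, with a 2.01-fold range inside the group. The log2 fold change was -0.21 ± 0.27 (SE, with an adjusted p of 0.81 from edgeR), and was 0.02 without wild type replicate 3.

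Entpd1, the ectoenzyme that removes ATP and ADP, spans chromosome 19 from 40612366 to 40741602. It had 773, 888 and 597 CPM in the wild type libraries, compared with 516, 658 and 616 CPM in replicates 5, 6 and 7 labelled knockout. Wild type replicate 4 lay among the libraries labelled knockout, so the groups overlapped. Group means were 753 ± 146 and 597 ± 73.1 CPM (SD, n = 3 each), with a log2 fold change of -0.34 ± 0.20 (SE, with an adjusted p of 0.652 from edgeR).

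Nt5e, the enzyme of the next step, spans chromosome 9 from 88327197 to 88372092 and had the largest fold change of the 10 genes at the lowest counts but for P2ry14. It had 20, 1 and 6 counts in the wild type group, compared with 38, 15 and 28 in replicates 5, 6 and 7 labelled knockout, or 0.696, 0.0906 and 0.342 CPM against 1.49, 0.899 and 0.875 CPM. The groups did not overlap, and Nt5e was the only one of the 10 of which this held. Among tested genes 13% did not overlap, 6.34% with the labelled knockout higher and 6.68% with it lower. Exact Poisson intervals, for counting error only, nevertheless overlapped between wild type replicate 1 (0.425 to 1.07 CPM) and replicate 7 (0.581 to 1.26 CPM). The log2 fold change was 1.38 ± 0.62 (SE; 95% interval -0.06 to 2.82; edgeR adjusted p = 0.637). It was 2.18 when wild type replicate 1 was left out (adjusted p of 0.156 by edgeR) and was 1.03 without wild type replicate 3, whose single count is under the 3 counts that a count of 0 allows. Over all alternatives its adjusted p lay between 0.156 and 1. Entpd1 exceeded Nt5e between 535 and 1129 times in RPKM in the libraries labelled knockout and 1713 and 2689 times in wild type replicates 1 and 4, and the ratio in replicate 3 rests on its single Nt5e count. Like Nt5e, some marker sums of other cells were higher in wild type replicate 1 than in replicates 3 and 4. The summed level of 5 fibroblast markers came to 16.2, 3.72 and 3.25 CPM in the wild type group, compared with 22.1, 19.2 and 22.1 CPM in replicates 5, 6 and 7. Of these 5 genes, 3 passed the filter on low counts, and Lum and Igf2 stayed at or under 0.359 CPM. The 12 astrocyte markers are given above. Neither sum ordered the libraries as Nt5e did. The border macrophage sum was highest of all in wild type replicate 1, at 1116 CPM, unlike Nt5e. The part of transcripts of these cells in the Nt5e values was not tested.

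Because 8 of the genes are expressed by microglia, their levels were also set against the summed CPM of the 19 microglia markers, which came to 50654, 50643 and 31521 in the wild type group, compared with 32763, 39473 and 37946 in replicates 5, 6 and 7 labelled knockout. Per 1000 CPM of these markers P2ry12 had 99.6, 78.3 and 98.0 CPM in the wild type libraries, compared with 94.5, 124 and 86.2 CPM in the libraries labelled knockout. For Gpr34 the values were 31.5, 26.6 and 25.2 against 29.3, 37.7 and 27.5. P2ry12 and Gpr34 had positive log2 differences on this scale, 0.14 and 0.18, while P2ry13 and Entpd1 had -0.10 and -0.08. For P2ry6, P2rx4, P2rx7 and Adora3 the differences lay between -0.05 and 0.07. All 8 genes overlapped between the groups, and the exact permutation p lay between 0.4 and 1 (8 comparisons, two-sided).

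**Figure D4:**
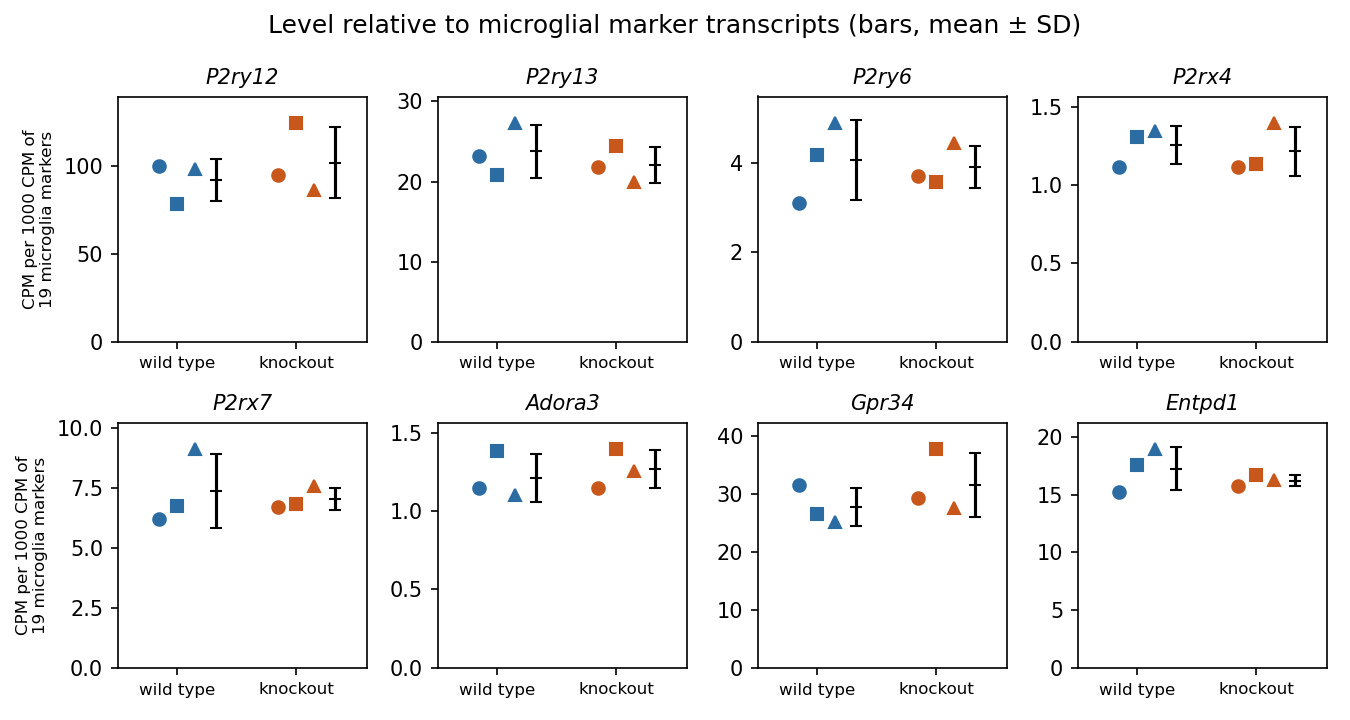
CPM of 8 genes per 1000 CPM of 19 summed microglia markers in each library (points), with mean ± SD beside them (n = 3 each, axes from 0). The groups overlap in every panel, and replicate 6 labelled knockout (orange square) is highest for P2ry12 and Gpr34.

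Other genes of the system were described by 4 lists. Of the 17 further receptor genes, 8 passed the filter on low counts, 0 were called by edgeR, 1 had an unadjusted p under 0.05 (7.25% of all tested genes did), and the median log2 fold change was 0.78, with 5 positive, beside -0.03 over all genes. The 4 smallest p-values belonged to Adora2b, P2rx1, Adora1 and P2ry1. Adora2b, the low-affinity adenosine receptor, had 1.95, 0.453 and 0.285 CPM in the wild type libraries, compared with 7.27, 1.62 and 3.34 CPM in replicates 5, 6 and 7 labelled knockout (log2 fold change 2.09 ± 0.81, SE; edgeR adjusted p = 0.637). Adora1, the inhibitory adenosine receptor of neurons and glia, had 10.6, 2.63 and 1.88 CPM against 14.6, 8.69 and 11.5 CPM (edgeR adjusted p = 0.638). P2rx1, an ATP-gated channel of blood cells, lay at 19.3 to 37.2 CPM and went the other way, with a log2 fold change of -0.42 ± 0.22 (SE, with an adjusted p of 0.637 from edgeR). P2ry1, a further ADP receptor, stayed at or under 0.977 CPM.

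Of 17 further enzyme genes, 12 passed the filter, 0 were called by edgeR, 3 had an unadjusted p under 0.05 (7.25% of all tested genes did), and the median log2 fold change was 0.63, with 8 positive. Adk, the kinase that clears adenosine inside cells, had 16.6, 9.15 and 7.53 CPM in the wild type libraries, compared with 29.2, 17.1 and 20.5 CPM in replicates 5, 6 and 7 labelled knockout, with no overlap of the groups (log2 fold change 1.0 ± 0.34, SE; edgeR adjusted p = 0.637). Entpd2, an ectoenzyme that makes ADP from ATP, had 2.82, 0.362 and 0.457 CPM against 11.4, 2.34 and 6.28 CPM, and Enpp2, which encodes autotaxin, had 38.6, 8.34 and 12.6 CPM against 54.8, 43.6 and 50.2 CPM. Their log2 fold changes were 2.36 and 1.30, each at an edgeR adjusted p of 0.637. The groups overlapped for Entpd2 and, as for Adk, did not for Enpp2, where 13% of all tested genes did not overlap. Alpl, tissue-nonspecific alkaline phosphatase, had a log2 fold change of 1.56 at the same adjusted p. In Adora2b, Adora1, Entpd2, Adk and Alpl wild type replicate 1 was the highest of the wild type libraries and replicate 5 the highest of all. The same held for the marker sums of astrocytes, of oligodendrocyte precursors (173 and 286 CPM in these libraries) and of endothelial and mural cells (156 and 225 CPM). It did not hold for the other marker lists. Replicate 4 was highest of wild type for GABAergic neurons, and replicate 7 highest of all for oligodendrocytes and fibroblasts. Border macrophages and glutamatergic neurons were highest of all in wild type replicate 1. The part of transcripts of any of these cells in the values was not tested.

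**Figure D5:**
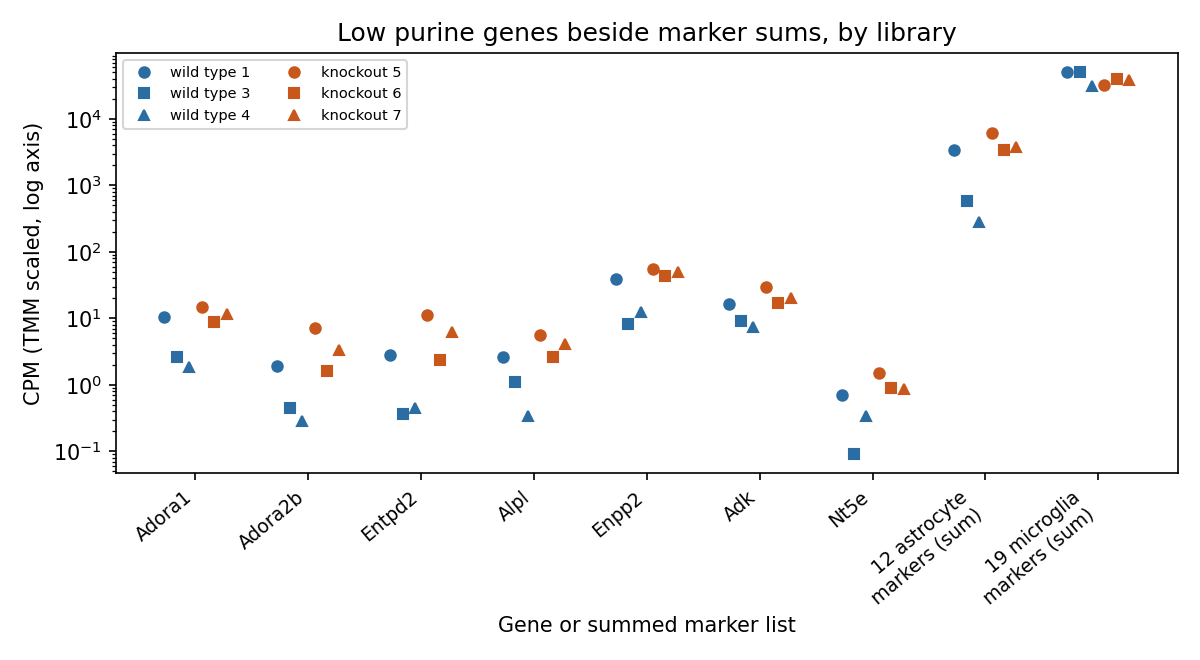
CPM (log axis) of 7 purine genes in each library beside the summed CPM of 12 astrocyte and 19 microglia markers. The genes and the astrocyte sum are low in wild type replicates 3 and 4 (blue square and triangle), at 584 and 285 CPM for the sum, while the microglia sum lies between 31521 and 50654 CPM throughout.

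Of 11 genes for ATP release and nucleoside transport, 10 passed the filter, 0 were called by edgeR and 0 had an unadjusted p under 0.05 (against 7.25% of all tested genes), with a median log2 fold change of 0.15. Gja1, the astrocyte connexin that is also in the astrocyte marker list, had 94.9, 22.0 and 6.62 CPM in the wild type libraries, compared with 246, 95.9 and 154 CPM in replicates 5, 6 and 7 labelled knockout. In this list the groups did not overlap for Gja1 and Lrrc8a, beside 13% of all tested genes. The nucleoside transporter genes Slc29a3 (lysosomal) and Slc29a1 (plasma membrane) had log2 fold changes of -0.62 and -0.36, and Slc17a9, the vesicular nucleotide transporter, -0.61, each with an edgeR adjusted p of 0.637. Slc29a3 was the most abundant of the list per length, at 38.4 ± 13.3 RPKM (SD over 6 libraries).

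All 22 genes of receptor signalling passed the filter, and 0 were called by edgeR, 5 had an unadjusted p under 0.05 (against 7.25% of all tested genes), and the median log2 fold change was -0.18. Nlrp3, the inflammasome sensor downstream of P2RX7, had 107, 104 and 100.2 CPM in the wild type libraries, compared with 69.5, 73.6 and 82.2 CPM in replicates 5, 6 and 7 labelled knockout. The groups did not overlap, and the log2 fold change was -0.47 ± 0.12 (SE, with an adjusted p of 0.637 from edgeR). Pik3cg, the PI3 kinase subunit driven by G protein-coupled receptors, had 357, 458 and 355 CPM against 234, 288 and 323 CPM, again without overlap, and a log2 fold change of -0.47 ± 0.18 (SE, with an adjusted p of 0.637 from edgeR). Plcb2, a phospholipase C of blood cells, had a log2 fold change of -0.56, and Plcb1, the isoform typical of neurons, one of 0.94, both at an edgeR adjusted p of 0.637. In this list the groups also did not overlap for Plcb1 and Gnai1, higher in those labelled knockout, and for Plcb3 and Arrb2, lower there. Over all tested genes 13% did not overlap. Kcnk13, the potassium channel THIK-1 that acts with P2RY12 in microglia, had 54.9 to 79.5 CPM in wild type and 51.2 to 71.4 CPM in the libraries labelled knockout. The microglia marker sum given above had the same direction of difference as Nlrp3, Pik3cg and Plcb2, and its part in these values was not tested.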

How the data were processed

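Values are the raw counts of reads per gene that the authors deposited, 1 file per library, neither normalized nor pooled. Trim Galore 0.60, STAR 2.7, HTSeq 1.31 and build mm10 appear in the submitters' processing notes. Annotation release and strand setting: not given in the sources used here. Reads of a gene and an antisense neighbour may therefore not be separable. The 5 summary lines stayed out of totals. Reads outside genes made up 40.0% to 58.2% and ambiguous reads 1.94% to 14.5% of each library. Of 53379 identifiers, 53274 matched GENCODE M21 (GRCm38).

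Groups were compared with edgeR 4.0.16 (R 4.3.3): TMM, default expression filter, robust quasi-likelihood F-test, two-sided, Benjamini-Hochberg over 17221 genes, threshold 0.05, checked on simulated data. Standard errors derive from the F statistic. Ratios used exact permutation over libraries. A count of 0 allows 3 counts, or 0.0982 to 0.22 CPM of the library totals. Alternatives were other scalings, filters and gene sets, DESeq2 1.42.0, limma-voom 3.58.1 and leaving out each library.

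The 10 genes, lists and marker genes were chosen with earlier results of these data known. From each list the 4 genes with the smallest p were named. Kcnk13 and the 2 motifs were chosen after values or sequences were seen. The further receptors were the remaining P2X, P2Y and adenosine receptor genes and some related orphan receptor genes, 1 of which is not reported here on its own.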

Additional observations from a re-analysis of the deposited data

How the results depend on the processing

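The number of the 10 genes called stayed at 0 under each alternative run, with an adjusted p no lower than 0.156. With at least 1 CPM in 3 libraries, P2ry14 and Nt5e were not tested. An unadjusted p under 0.05 was reached by 4 genes without wild type replicate 4, where 3087 of all 17991 genes tested also reached it (1249 of 17221 with all libraries), and by at most 1 gene elsewhere. Over all genes, calls numbered 1 with all libraries, 306 higher and 15 lower without wild type replicate 1, 21 and 7 by DESeq2, 4 and 1 with no filter, 5 and 1 without replicate 7, 3 and 0 without wild type replicate 4, and 0 among protein-coding genes alone. With library totals alone the log2 fold change became 0.036 for P2ry12 and 0.055 for Gpr34. Without 1 library it ran from -0.34 to 0.091 for P2ry12, from -0.33 to 0.12 for Gpr34, from -0.45 to 0.017 for Adora3 and from -0.12 to 0.67 for P2ry14, and the cause was not tested. Levels relative to microglia markers ran from -0.019 to 0.25 for P2ry12, from -0.22 to 0.11 for P2ry6, from -0.15 to 0.0086 for P2rx4, from -0.16 to 0.12 for P2rx7 and from -0.0033 to 0.17 for Adora3, and the P2rx7 to P2rx4 difference from -0.083 to 0.11. The other log2 fold changes kept their sign in the alternatives run. No paired analysis was possible because the groups share no replicate number. Depth limits P2ry14 and Nt5e, which had 1 to 38 counts per library.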

Other observations

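Rgs1 and Il1b of the signalling list, named after their values were seen, set wild type replicate 4 apart from the other 5 libraries. Rgs1, which encodes a brake on G protein signalling in leukocytes, had 14.9 CPM there, against 506 and 422 CPM in the other wild type libraries and 265 to 541 CPM in the libraries labelled knockout. Il1b, the cytokine released after P2RX7 opening, had 0.285 CPM in wild type replicate 4, 16.6 and 3.17 CPM in the other wild type libraries, and 8.62 to 11.1 CPM in the libraries labelled knockout. The sum of the 19 microglia markers was also lowest in this library, at 31521 CPM. Gpr34 (794 CPM) and Adora3 (34.8 CPM) were lowest there too, P2ry12 (3089 CPM) was close to replicate 5 labelled knockout (3095 CPM), and P2rx7 (287 CPM) was at the level of replicate 7 labelled knockout. Sall1, also named after its values were seen, a transcription factor of microglial identity, was highest in it, at 769 CPM against 329 to 657 CPM elsewhere.

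Gpr17, chosen in the same way, a receptor of oligodendrocyte precursors related to the P2Y family, had 70.6, 0.816 and 28.6 CPM in the wild type libraries, compared with 124, 92.8 and 57.0 CPM in replicates 5, 6 and 7 labelled knockout (log2 fold change 1.44 ± 1.02, SE; edgeR adjusted p = 0.686). Pdgfra, a marker of the same cells, was likewise lowest in wild type replicate 3, at 0.816 CPM.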
